A study of Mus musculus with 15 samples.

Results

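The expression of 36 lysosomal genes was followed across 15 RNA sequencing libraries of sorted mouse liver cells. They were 9 cysteine proteases, 3 other proteases, 7 glycan-degrading enzymes, 6 proteins that handle lipids, progranulin, 4 membrane proteins, 5 subunits of the proton pump and the transcription factor gene Tfeb. The genes were chosen by name, and all 36 were among the 24493 genes of the deposited table. The filter of at least 1 TPM in at least 3 libraries was passed by 35 of them. Ctsk, a protease best known from bone-resorbing osteoclasts, was not tested, and its level ran from 0.0528 to 1.68 scaled TPM.

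The libraries formed 5 groups of 3: reprogrammed cells, biliary cells and hepatocytes from mice fed DDC chow, and biliary cells and hepatocytes from untreated mice. DDC, mixed into the chow, damages the bile ducts and the hepatocytes around them. All mice, untreated ones included, had received AAV-TBG-Cre when 4 weeks old. In this virus a promoter active in hepatocytes drives the recombinase Cre and so labels cells. DDC chow began at 5 weeks of age and lasted 4 weeks. By the title of the series the reprogrammed cells derive from hepatocytes, and neither the sort markers nor the strain are given in the sources used here. The labels do not say that libraries of a group came from separate animals, so the p-values reflect the spread among these samples, which may be technical.

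Lysosomes are acidic organelles that break down proteins, glycans and lipids delivered by endocytosis and autophagy. The V-ATPase pumps protons into them, soluble hydrolases do the cutting, and heavily glycosylated membrane proteins line the inner face. Many of these genes are targets of TFEB and its relatives, basic helix-loop-helix factors that bind a sequence built on CACGTG and known as the CLEAR element. Hepatocytes are rich in lysosomes and use them to clear organelles, glycogen and lipid droplets.

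The sequence TFEB is known to bind was common before the start sites of these genes. RefSeq promoter windows of GRCm38.p6, each from 250 bases before to 50 bases after a start, were at hand for 29 of the 36 genes. Those of Npc1, Asah1, Ctsb, Atp6v0d2, Atp6v1b2, Atp6v1h and Ctsh were not among them. CACGTG, which reads the same on both strands, was found for 12 of the 29 genes (41.4%) and for 8.09% of all 27025 genes with a window. The longer TCACGTG, searched on both strands and always containing CACGTG, was found for 10 of the 29 (34.5%) and for 4.29% of all genes. Per window, CACGTG was in 12 of 34 windows of these genes (35.3%) and in 7.15% of all 32851 windows. Ctsf and Ctsl held CACGTG without the longer form.

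The 100 bases before the start of Lamp1 are printed because they held 4 copies, more than any other window of these genes. They lie on the plus strand at chr8:13159061-13159160. For some of the other genes with a copy, 1 copy each is shown with 10 bases on each side. Ctsd is at chr7:142387910-142387935 (minus strand), Lgmn at chr12:102439126-102439151 (minus strand, from its downstream RefSeq start) and Gaa at chr11:119267813-119267838 (plus strand). Mcoln1 is at chr8:3500464-3500489 (plus strand) and Atp6v0d1 at chr8:105566052-105566077 (minus strand). All are written 5′ to 3′ with CACGTG in capitals.
Lamp1: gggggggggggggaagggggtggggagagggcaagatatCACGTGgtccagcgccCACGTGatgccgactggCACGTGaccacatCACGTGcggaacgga
Ctsd: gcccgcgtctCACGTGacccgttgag
Lgmn: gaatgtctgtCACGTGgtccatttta
Gaa: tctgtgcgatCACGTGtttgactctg
Mcoln1: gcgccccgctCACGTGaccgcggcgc
Atp6v0d1: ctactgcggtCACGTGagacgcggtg
The first base of CACGTG lay 98 bases before the start of Ctsd, 49 before that of Lgmn, 140 before that of Gaa, 45 before that of Mcoln1 and 3 before that of Atp6v0d1. The windows of Ctsd and Mcoln1 each held 1 more copy, not printed, which began 245 and 71 bases before the start. In Lamp1 the 4 copies began 61, 45, 28 and 15 bases before the start. A match describes the letters of the window and does not show that a factor binds there.

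Values below are scaled TPM. TPM is an abundance per transcript length and per library, and each library was divided by 1 scale factor set by its median gene. Depth is unknown, since TPM keeps no read totals. A log2 difference subtracts group means of log2(scaled TPM + 1), which understates the change of low genes. Adjusted p-values come from limma across all 13905 genes tested. A gene is called higher or lower when its adjusted p is under 0.05 and its log2 difference is 1 or more in size, and some counts are given for the adjusted p alone. Where 0 members were called, limma's unadjusted p under 0.05 counted 1 member higher in reprogrammed cells against DDC hepatocytes, 0 lower against DDC biliary cells, 5 lower in DDC than in untreated biliary cells, and 5 with a larger DDC response in hepatocytes. The share of all genes at an unadjusted p was not computed, here or below, so these counts have no background. The keratin gene Krt19, which marks bile ducts, was at 234 to 313 in reprogrammed cells, 464 to 668 in DDC biliary cells and 1.41 to 1.64 in DDC hepatocytes. Untreated biliary cells had 364 to 571 and untreated hepatocytes 0 to 0.720. Albumin mRNA, the mark of hepatocytes, was also present in untreated biliary cells, where the 10 hepatocyte markers had a median of 42.4% of their deposited TPM in untreated hepatocytes. The gene Mir6236 took 1.95% to 15.3% of the TPM, most in the first library of DDC hepatocytes, and genes of at least 1 TPM numbered 10231 to 13636 per library.

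Lysosomal transcripts made up a larger share of the deposited TPM in every DDC library than in any untreated library. The 36 genes held 0.474 to 0.517% in reprogrammed cells, 0.451 to 0.497% in DDC biliary cells and 0.418 to 0.525% in DDC hepatocytes. They held 0.378 to 0.387% in untreated biliary cells and 0.311 to 0.335% in untreated hepatocytes. Cysteine proteases were the role that held most in the DDC groups. In DDC hepatocytes they held 0.147 to 0.165%, against 0.0872 to 0.0999% in untreated hepatocytes. Membrane proteins held 0.101 to 0.133% in DDC hepatocytes and up to 0.117% in untreated hepatocytes, and these ranges overlapped. A share depends on all other genes of a library, and in sorted bulk cells a change of cell mixture and a change of RNA per cell cannot be told apart.

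On the scaled values, hepatocytes of DDC mice were the group with the highest mean for 20 of the 36 genes, and untreated biliary cells the group with the lowest mean for 19. Reprogrammed cells were highest for 0 of 36 and lowest for 3. In TPM as deposited, DDC biliary cells were highest for 14 and untreated hepatocytes lowest for 23. The most abundant members in DDC hepatocytes were the endoprotease gene Ctsl at 881 ± 209.6 scaled TPM and Lamp1, a structural protein of the lysosome membrane, at 871 ± 95.9 (SD, n = 3). In untreated biliary cells the first was Psap, the precursor of the saposins that help lipid hydrolases, at 379 ± 8.76, followed without overlap by Lamp2, the partner of Lamp1 in the membrane, at 307 ± 17.9. In untreated hepatocytes Lamp2 stood first at 914 ± 76.5 and Lamp1 next at 809.6 ± 60.9, with overlapping libraries.

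**Figure D1:**
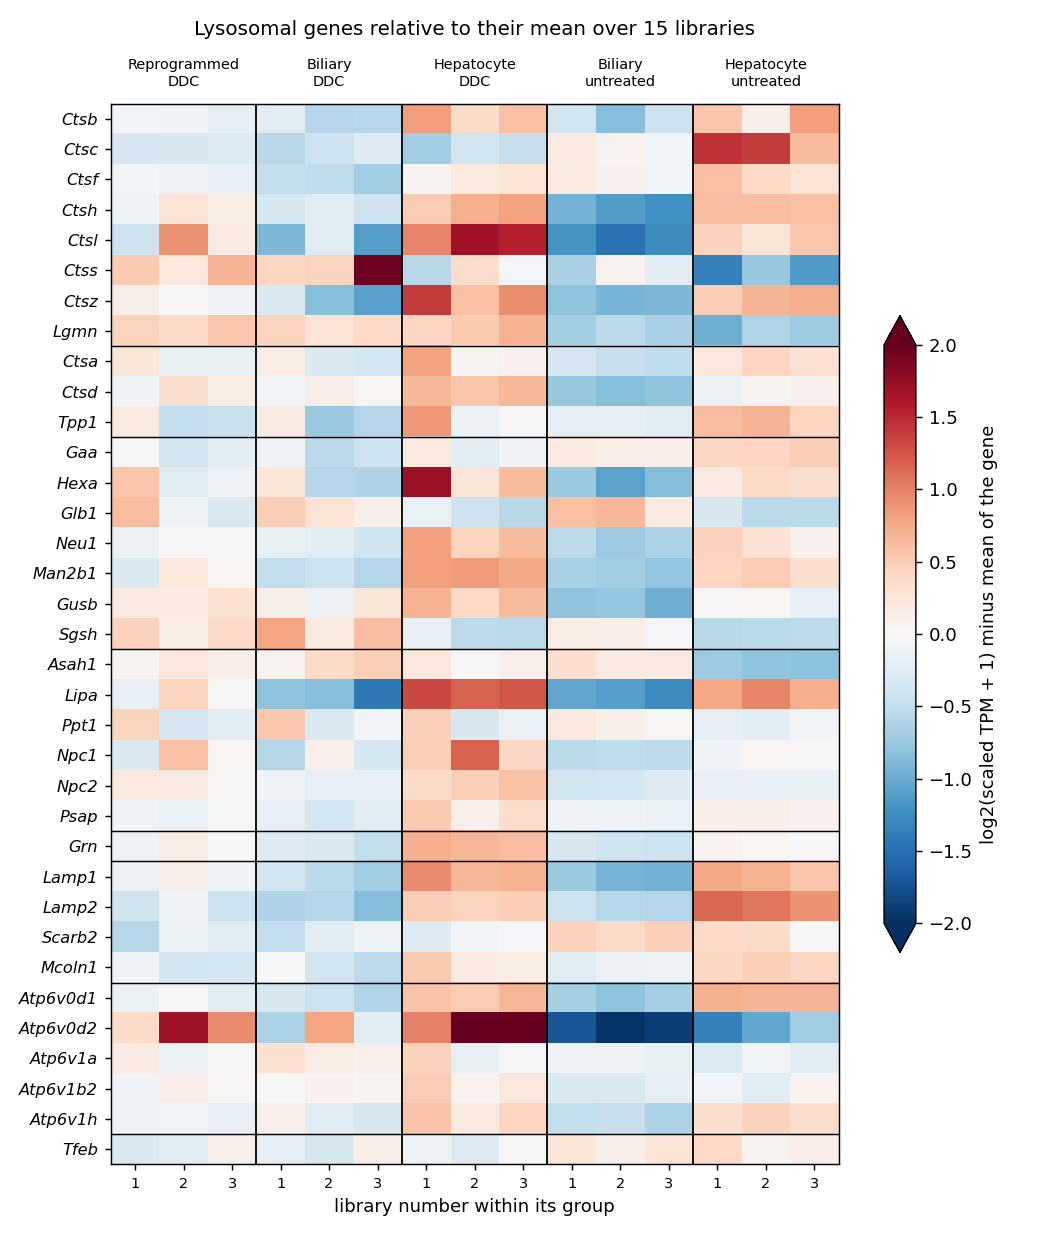
Each row is 1 of the 35 tested lysosomal genes, grouped by role, and each column 1 library, 3 in each of the 5 groups; colour is log2(scaled TPM + 1) minus the mean of the gene over all 15 libraries. Atp6v0d2 and Lgmn are above their mean in most or all DDC libraries and below it in untreated ones, while Lamp1, Lamp2 and Lipa are above their mean in both hepatocyte groups.

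A few of these genes differed strongly between DDC and untreated hepatocytes. Atp6v0d2 and Lgmn were called higher in DDC hepatocytes than in untreated hepatocytes, and Ctsc was called lower. Thus 2 of 35 were called higher and 1 lower, while 6.62% and 4.39% of all genes were. On the adjusted p alone 11 were higher and 3 lower, against 14.8% and 12.9% of all genes. The median log2 difference was 0.22 over the 35 genes and 0.02 over all genes tested. Ctsl was just under the fold, at 644, 1042 and 958 in DDC and 449, 388 and 476 in untreated hepatocytes (log2 difference 0.98 ± 0.31 (SE), adjusted p = 0.0298). Without the first DDC library Ctsl (1.20) and Ctss (1.24) were called higher too. Ctsl was also called higher as deposited (1.24) and after quantile normalization (1.22).

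Atp6v0d2 (chromosome 4, 19876841 to 19922605, GRCm38) codes for the d2 form of the subunit that joins the membrane and catalytic sectors of the V-ATPase, and is best known in mice from osteoclasts. It was 7.57, 21.4 and 20.2 scaled TPM in the 3 libraries of DDC hepatocytes, against 0.671, 1.06 and 1.62 in untreated hepatocytes. Every DDC library stood above every untreated one (log2 difference 2.94 ± 0.43 (SE), adjusted p = 0.000314). In biliary cells it was 1.75, 6.35 and 2.67 with DDC and 0.297, 0.0925 and 0.148 without, again with no overlap (log2 difference 1.84 ± 0.43 (SE), adjusted p = 0.00765). Reprogrammed cells had 4.47, 12.7 and 7.20, between the other DDC groups but overlapping both. The common form Atp6v0d1 differed little, at 100.2 ± 5.85 in DDC hepatocytes and 108 ± 1.51 in untreated hepatocytes (log2 difference -0.11 ± 0.09 (SE), adjusted p = 0.45).

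Lgmn (chromosome 12, 102394084 to 102439813), which codes for legumain, a protease that cuts after asparagine, responded with little spread. It was 52.7, 56.3 and 63.8 in DDC hepatocytes, against 19.4, 25.4 and 23.5 in untreated hepatocytes (log2 difference 1.31 ± 0.11 (SE), adjusted p = 3.26e-06). In DDC biliary cells it was 53.6, 47.4 and 51.8, against 23.9, 26.6 and 24.6 in untreated biliary cells. The biliary log2 difference was 0.997, just under the fold needed for a call, with an adjusted p of 3.21e-05. Reprogrammed cells had 53.7, 51.2 and 57.4. All 9 DDC libraries lay above all 6 untreated ones, whatever the cell type. Without the second DDC biliary library Lgmn (1.05) and Gusb (1.03) were called in biliary cells too. Both were also called there as deposited (1.11 and 1.05) and after quantile normalization (1.26 and 1.16).

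Ctsc (chromosome 7, 88278085 to 88310888) went the other way. It codes for dipeptidyl peptidase I, which activates the serine proteases of immune cells. It was 6.95, 9.05 and 8.43 in DDC hepatocytes and 34.2, 33.2 and 19.1 in untreated hepatocytes (log2 difference -1.67 ± 0.19 (SE), adjusted p = 3.84e-05). The third untreated library was the lowest of its group and still above every DDC library. In biliary cells the values were 7.81, 8.62 and 9.85 with DDC and 13.6, 12.6 and 11.4 without, which did not overlap but missed the threshold (log2 difference -0.47 ± 0.19 (SE), adjusted p = 0.0801). Reprogrammed cells had 9.26, 9.31 and 9.71, close to the other DDC groups.

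**Figure D2:**
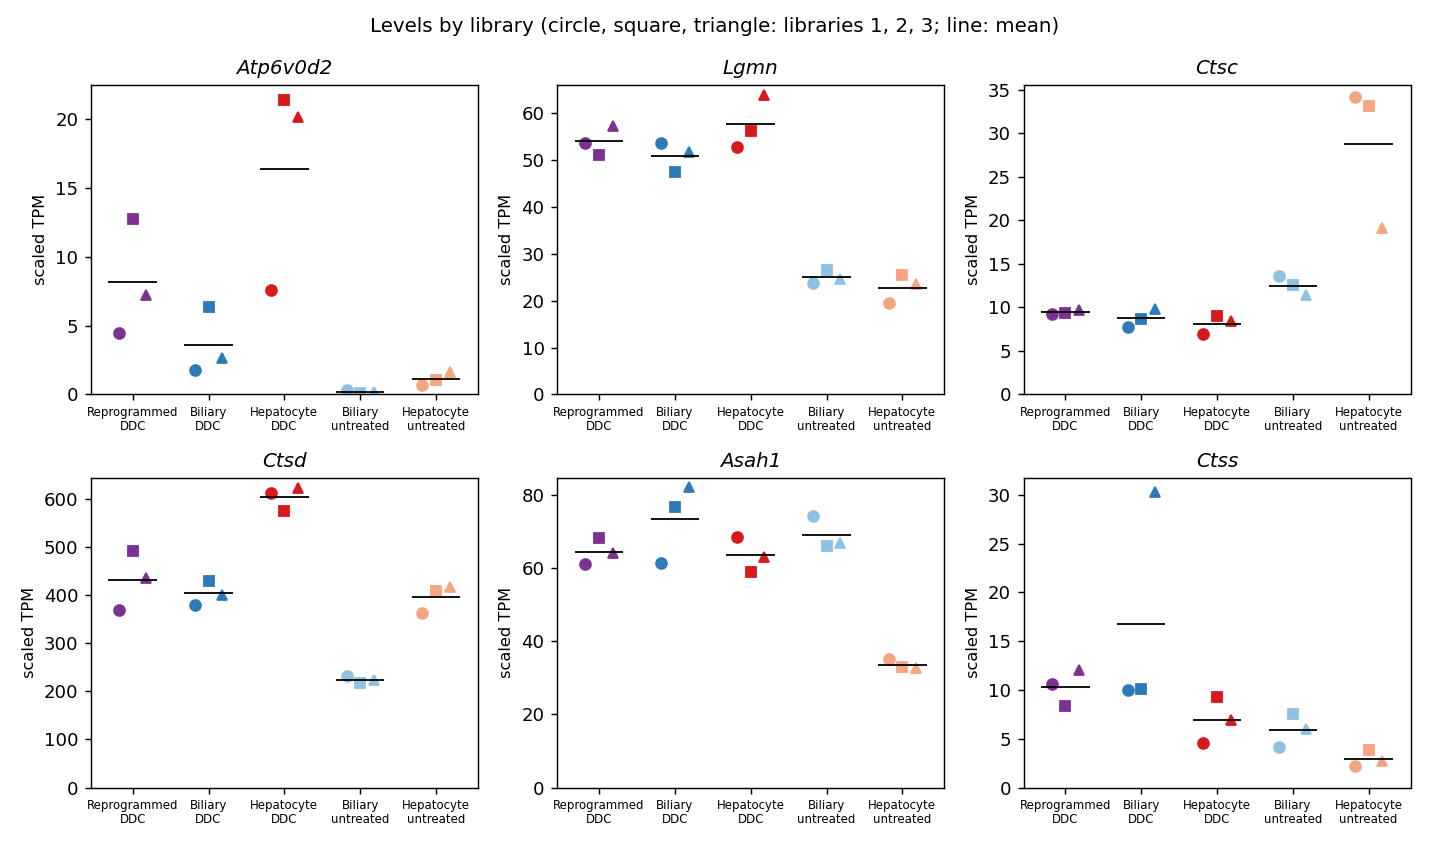
Scaled TPM of 6 lysosomal genes in each library (circle, square and triangle for libraries 1, 2 and 3 of a group), with a line at the group mean and axes starting at 0. Lgmn separates all DDC from all untreated libraries, Ctsc is highest in untreated hepatocytes, and Ctss in DDC biliary cells rests on library 3 at 30.3.

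In biliary cells, 2 of 35 genes were called higher with DDC, Atp6v0d2 and Ctss, and 0 lower, while 5.63% and 4.78% of all genes were. On the adjusted p alone 8 were higher and 3 lower, against 13.3% and 12.9%. The median log2 difference was 0.21 over the 35 genes and -0.03 over all genes tested. Ctss, a protease of antigen-presenting cells, was 9.96, 10.1 and 30.3 in DDC biliary cells, against 4.17, 7.51 and 6.04 in untreated biliary cells (log2 difference 1.21 ± 0.37 (SE), adjusted p = 0.0303). The groups did not overlap, but 1 library held most of the difference. Without library 3 of the DDC group the log2 difference was 0.71 with an adjusted p of 0.112. The call was also lost without the first untreated library (adjusted p = 0.118), without the third (0.0665), and when only these 2 groups were fitted (0.0829).

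Markers of other cell types were set beside these genes. The summed level of 16 macrophage markers was 109 to 232 scaled TPM in DDC biliary cells, highest in the third library, and 93.5 to 133 in untreated biliary cells. It was 52.0 to 69.3 in DDC hepatocytes and 24.0 to 47.9 in untreated hepatocytes. Of 15 macrophage markers tested, 4 were called higher and 1 lower with DDC in biliary cells, against 5.63% and 4.78% of all genes. In hepatocytes 3 were called higher and 1 lower, against 6.62% and 4.39% of all genes. Their median log2 difference was 0.02 in biliary cells and 0.06 in hepatocytes. Clec4f, a marker of Kupffer cells, was lower with DDC in both cell types, at 0.482, 0.947 and 3.17 in DDC and 6.98, 11.8 and 9.93 in untreated biliary cells. Adgre1 and Ptprc, which mark macrophages and all leukocytes, stayed at or under 1.96 and 0.989 in every library. Csf1r, the receptor of a macrophage growth factor, was 2.67, 2.08 and 4.09 in DDC hepatocytes and 1.44, 2.29 and 1.95 in untreated hepatocytes. In biliary cells Csf1r was 15.8, 23.4 and 30.5 with DDC and 34.1, 49.5 and 43.9 without, with no overlap and no call. Lyz2, another of these markers, was called higher with DDC in both cell types. It was 30.3 to 82.0 in DDC and 7.33 to 13.7 in untreated biliary cells, and 16.8 to 22.4 and 1.74 to 6.56 in hepatocytes. The 6 neutrophil markers summed to 9.90 to 32.6 in DDC libraries and to 0.643 to 1.95 in untreated libraries. The 10 markers of stellate cells and fibroblasts summed to 396 to 642 in DDC and 124 to 139 in untreated biliary cells, and to 15.2 to 24.2 in DDC and 1.42 to 5.36 in untreated hepatocytes. The pericyte gene Rgs5 made up most of the biliary sums, and the other 9 markers summed to 16.2, 23.5 and 88.1 in DDC and 26.9, 31.2 and 20.2 in untreated biliary cells, with overlap. Markers of lymphocytes stayed at or under a sum of 1.84, and those of endothelial cells at or under 33.8. The part of these cells in the levels of Atp6v0d2, Ctss and Ctsc was not tested.

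Other members with an adjusted p under 0.05 moved less. Ctsd, the main aspartic protease of lysosomes, was 613, 575 and 622 in DDC hepatocytes, against 363, 408 and 418 in untreated hepatocytes (log2 difference 0.61 ± 0.11 (SE), adjusted p = 0.00174). In biliary cells it was 379, 429.9 and 401 with DDC and 232, 217 and 223 without (log2 difference 0.84 ± 0.11 (SE), adjusted p = 0.000162). Neither pair of groups overlapped. Gusb, which removes glucuronic acid from glycosaminoglycans, averaged 45.8 ± 4.85 in DDC and 29.7 ± 2.42 in untreated hepatocytes (log2 difference 0.61). It averaged 32.2 ± 4.18 in DDC and 16.4 ± 1.29 in untreated biliary cells (log2 difference 0.93). Gaa, which frees glucose from glycogen, was lower with DDC in both, by a log2 difference of -0.49 in hepatocytes and -0.51 in biliary cells.

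Of the genes that passed the adjusted p alone, Lgmn, Ctsd, Gusb and Atp6v0d2 were higher in both cell types. These 4 were 36.4% of the 11 in hepatocytes and 50% of the 8 in biliary cells. For all genes the shares were 33.3% and 37.1%. Gaa was the only 1 of 3 lower in both, or 33.3% in each cell type, while for all genes the shares were 44.9% and 45%. CACGTG stood before Lgmn and Ctsd, which were higher, and before Gaa, which was lower, while the windows of Gusb did not hold it. Tfeb itself, whose product binds such sites, was 4.80, 4.24 and 5.08 in DDC and 7.24, 5.51 and 5.81 in untreated hepatocytes, without overlap but with no call (log2 difference -0.33 ± 0.15 (SE), adjusted p = 0.127). It was 4.47, 3.99 and 5.79 in DDC and 6.40, 5.75 and 6.42 in untreated biliary cells, with overlap (log2 difference -0.33 ± 0.15 (SE), adjusted p = 0.121), and 4.09, 4.32 and 5.67 in reprogrammed cells.

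**Figure D3:**
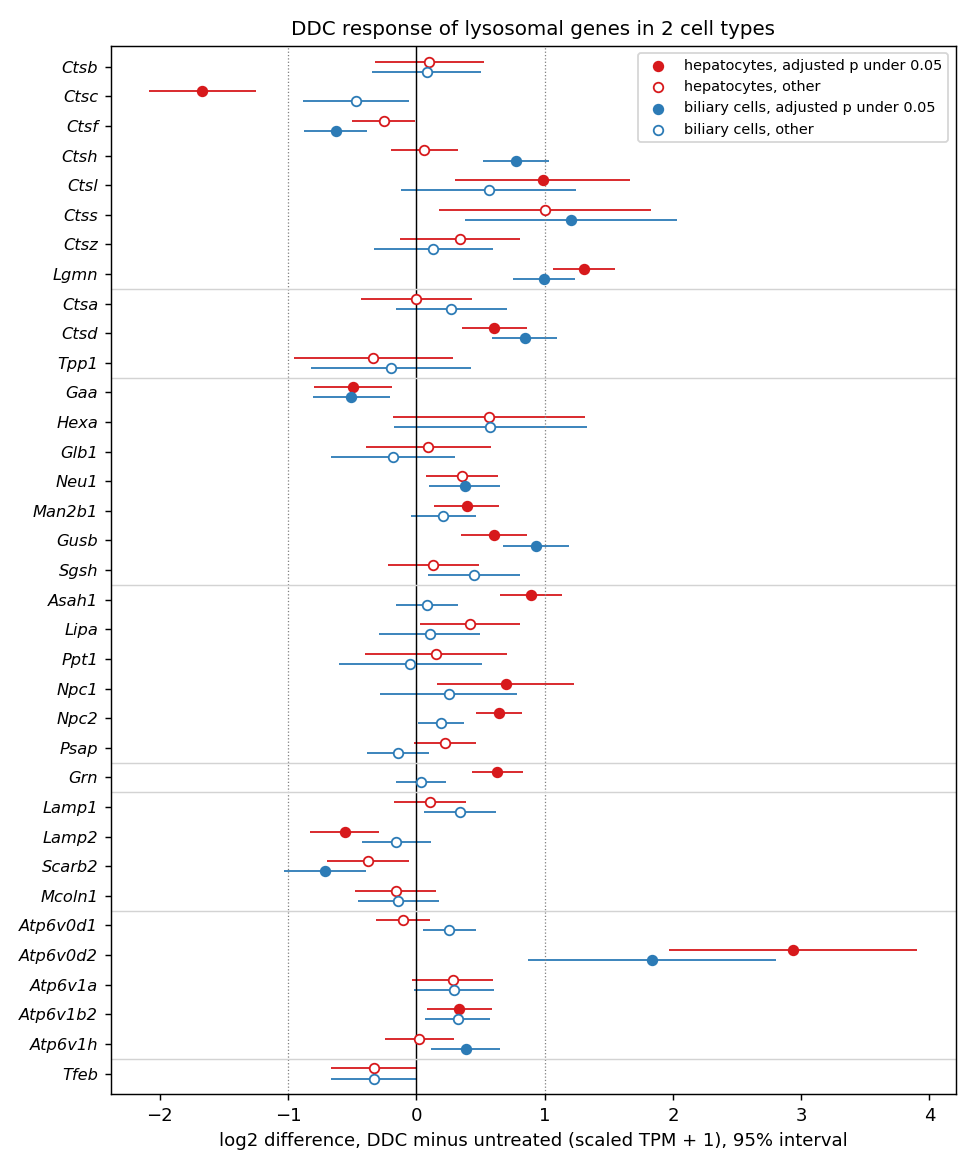
Log2 differences of the 35 tested genes between DDC and untreated cells, hepatocytes in red and biliary cells in blue, with 95% intervals; filled points have an adjusted p under 0.05, dotted lines mark a difference of 1 in size, and grey lines separate roles. Atp6v0d2 is farthest to the right in both cell types and Ctsc in hepatocytes farthest to the left, and the 6 lipid-handling genes from Asah1 to Psap all lie further right in hepatocytes.

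Of the 6 genes of lipid handling, 3 were higher in DDC than in untreated hepatocytes on limma's adjusted p alone, and all 6 differences were positive. Of all genes 14.8% were higher there. In biliary cells 0 of 6 passed it, against 13.3% of all genes higher, and 1 of the 6 was higher at an unadjusted p under 0.05. Asah1, the acid ceramidase, was 63.5 ± 4.73 in DDC hepatocytes, against 33.6 ± 1.29 in untreated hepatocytes (log2 difference 0.90 ± 0.11 (SE), adjusted p = 6.93e-05). In biliary cells it was 73.5 ± 10.8 with DDC and 69.0 ± 4.49 without (log2 difference 0.08, 95% interval -0.16 to 0.32). Npc1 and Npc2, which pass cholesterol out of the lysosome, had log2 differences of 0.70 and 0.64 in hepatocytes and of 0.25 and 0.19 in biliary cells. Grn, the gene for progranulin, was 289 ± 10.6 in DDC and 186 ± 3.79 in untreated hepatocytes (log2 difference 0.63), and 143 ± 10.9 in DDC and 139 ± 5.73 in untreated biliary cells (log2 difference 0.04).

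The difference between the DDC responses was tested directly. Its median was 0.01 over the 35 genes and 0.02 over all genes. Ctsc was the 1 gene called, lower in hepatocytes (log2 difference -1.20 ± 0.26 (SE), adjusted p = 0.00921), and 0 were called higher. Among all genes 3.39% were called lower and 5.03% higher. In TPM as deposited this value was -0.99 and after quantile normalization -0.84, both under the fold needed. On the adjusted p alone 3 were higher and 2 lower, against 7.42% and 5.41% of all genes. The response was larger in hepatocytes for Asah1 (difference 0.82, adjusted p = 0.00346), Grn (0.60, 0.00703) and Npc2 (0.45, 0.0209). It was lower in hepatocytes for Ctsh, an aminopeptidase (-0.71, 0.0119). Ctsh was 322 ± 34.0 in DDC and 307 ± 2.47 in untreated hepatocytes, and 162 ± 11.5 in DDC and 94.1 ± 9.07 in untreated biliary cells. For Npc1 the difference of 0.44 had a 95% interval of -0.31 to 1.20, and for Atp6v0d2 the difference of 1.10 had one of -0.27 to 2.47.

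Most lysosomal genes were lower in untreated biliary cells than in untreated hepatocytes relative to the median gene, but this direction depends on the scale. The deposited TPM of the median gene was higher in biliary cells by 1.11 on the log2 scale, and scaling brought this shift to 0.12. On scaled values 11 of 35 were called lower and 1 higher in biliary cells, while 15.6% and 21.6% of all genes were. As deposited, 0 were called lower and 12 higher, where 3.38% and 52.9% of all genes were. After quantile normalization 5 were called lower and 2 higher, where 16.7% and 14.1% of all genes were. On the adjusted p alone 3 were higher and 20 lower on scaled values, against 37% and 29.9% of all genes. With libraries paired by number 5 were higher and 23 lower (39.9% and 33% of all genes). The members' median was -0.75 on scaled values, 0.88 below that of all genes. As deposited it was 0.50, 0.61 below that of all genes, and after quantile normalization it was 0.13 below. The members thus lay below the median gene on each of the 3 scales, by different amounts.

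On the log2 scale with a pseudocount of 1, the 3 genes lowest in biliary cells were the same on the scaled and the deposited values. Lipa, the acid lipase that splits cholesteryl esters and triglycerides, was 64.6, 61.6 and 55.3 in untreated biliary cells, against 231, 264 and 223 in untreated hepatocytes (log2 difference -1.97 ± 0.18 (SE), adjusted p = 6.96e-07; -0.70 as deposited). Ctsl was 144, 116 and 136 in biliary cells and 449, 388 and 476 in hepatocytes (log2 difference -1.72 ± 0.31 (SE), adjusted p = 0.000264; -0.45 as deposited). Ctsh was 104, 92.2 and 86.2 in biliary cells and 309, 308 and 305 in hepatocytes (log2 difference -1.70 ± 0.12 (SE), adjusted p = 5.79e-08; -0.43 as deposited). None of these groups overlapped on the scaled values. As deposited none of the 3 genes was called, with an adjusted p of 0.000572 for Lipa, 0.0824 for Ctsl and 0.000254 for Ctsh. Atp6v0d2, whose levels of 0.0925 to 0.297 in biliary cells and 0.671 to 1.62 in hepatocytes lay near the pseudocount, was not called (log2 difference -0.82 ± 0.43 (SE), adjusted p = 0.111). It was called lower in biliary cells with a pseudocount of 0.1 (log2 difference -2.11, adjusted p = 0.00436), larger in size than that of Lipa above, and after quantile normalization (-1.68, adjusted p = 0.00573).

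The membrane proteins Lamp2 and Lamp1 came next. Lamp2 was 328, 299 and 295 in untreated biliary cells, against 978, 935 and 829 in untreated hepatocytes (log2 difference -1.57 ± 0.12 (SE), adjusted p = 1.73e-07). Lamp1 was 303, 265 and 261 in biliary cells and 864, 820.3 and 744 in hepatocytes (log2 difference -1.55 ± 0.13 (SE), adjusted p = 2.98e-07). Ctsz, a carboxypeptidase, was 157, 145 and 148 in biliary cells and 390.0, 443 and 455 in hepatocytes (log2 difference -1.51 ± 0.21 (SE), adjusted p = 3.28e-05). All 3 separated the groups without overlap on the scaled values. As deposited all 3 remained negative but none was called. The differences were -0.30 for Lamp2 (adjusted p = 0.0163), -0.28 for Lamp1 (0.0683) and -0.24 for Ctsz (0.363).

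The common V-ATPase subunit gene Atp6v0d1 was 41.3, 37.7 and 41.6 in untreated biliary cells and 109, 107 and 107 in untreated hepatocytes (log2 difference -1.40 ± 0.09 (SE), adjusted p = 4.45e-08). As deposited its difference was -0.15 and was not called (adjusted p = 0.197). Hexa, the alpha subunit of hexosaminidase, was 23.5, 18.4 and 21.4 in biliary cells and 44.8, 52.6 and 50.3 in hepatocytes (log2 difference -1.19 ± 0.34 (SE), adjusted p = 0.00718), and its sign turned as deposited, to 0.047. Man2b1, an alpha-mannosidase, Ctsc and the endoprotease gene Ctsb were also called lower on the scaled values, at -1.13, -1.10 and -1.05, and turned positive as deposited, at 0.11, 0.11 and 0.22. Ctsd was 232, 217 and 223 in biliary cells and 363, 408 and 418 in hepatocytes (log2 difference -0.82 ± 0.11 (SE), adjusted p = 3.37e-05), and its sign turned as deposited to 0.45 and after quantile normalization to 0.38.

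Asah1 was the 1 member called higher in untreated biliary cells, at 74.2, 66.0 and 66.9 against 35.1, 33.0 and 32.8 in untreated hepatocytes (log2 difference 1.01 ± 0.11 (SE), adjusted p = 3.41e-06; 2.25 as deposited). This call sat at the fold limit and was lost without the third hepatocyte library (log2 difference 0.997) or the first biliary library (0.96). Glb1 was called higher too without the first hepatocyte library (1.01) or the third biliary library (1.09). Glb1, the beta-galactosidase, and Sgsh, which removes sulfate from heparan sulfate, were higher on the adjusted p alone, at 0.94 and 0.63. As deposited they were 2.12 and 1.63. For Tfeb the log2 difference was 0.01 on scaled values, 1.09 as deposited and -0.68 after quantile normalization.

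**Figure D4:**
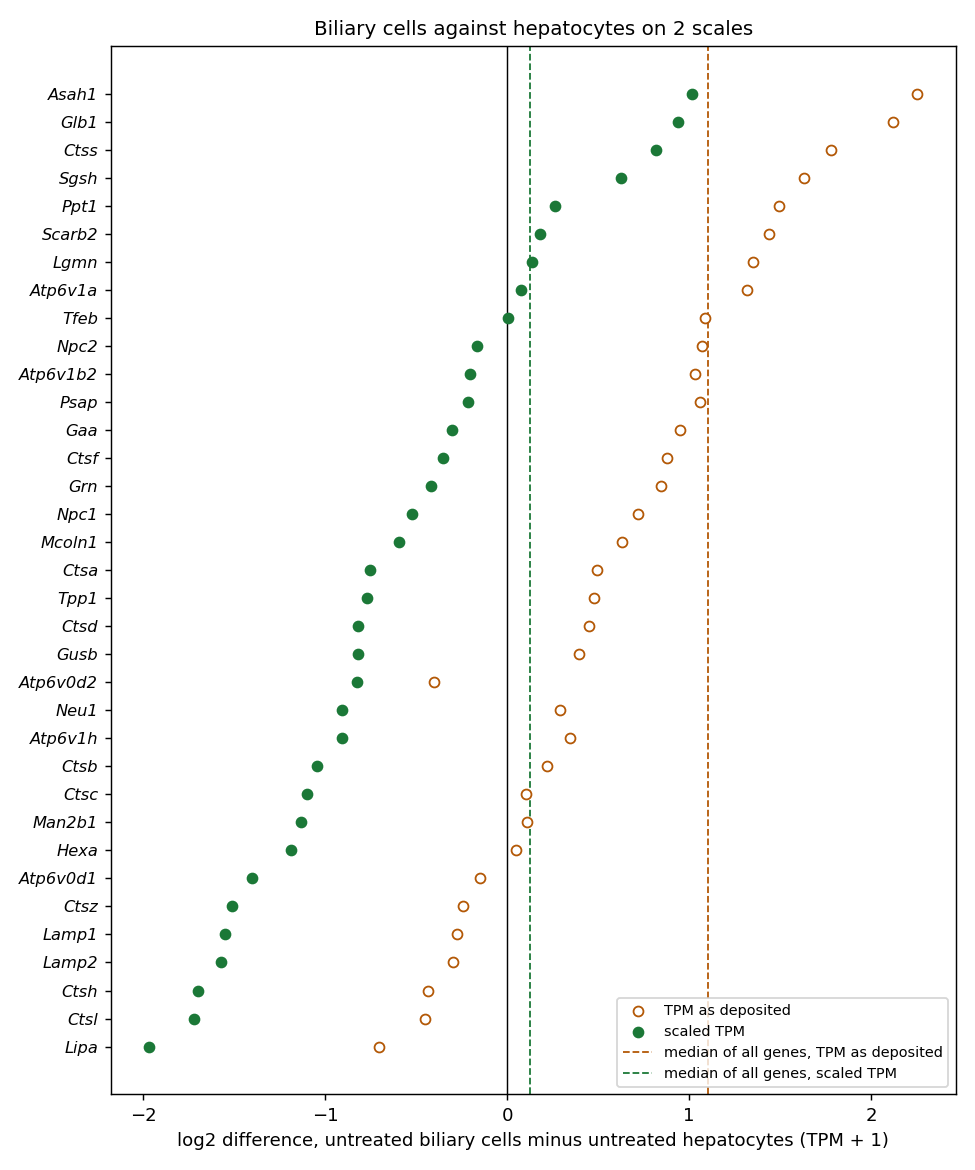
Log2 difference of the 35 tested genes between untreated biliary cells and untreated hepatocytes, in order of the scaled values (filled) and with TPM as deposited (open); dashed lines are the medians of all genes tested on each scale, at 0.12 and 1.11. Lipa, Ctsl and Ctsh lie farthest left on both scales and Asah1 and Glb1 farthest right, and most points lie left of the median of their own scale.

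Transcripts of hepatocyte markers were found in the biliary libraries too. On scaled values the 10 markers had a median log2 difference of -2.51 between untreated biliary cells and untreated hepatocytes. In deposited TPM the 10 hepatocyte markers stood at 35.9% to 56.8% of their untreated hepatocyte level in untreated biliary cells, with a median of 42.4%. The 35 lysosomal genes stood at 37.7% to 496%, with a median of 141%. Atp6v0d2 was the lowest of them, Lipa stood at 60.9% and Ctsl at 73.1%, and both of these lay above all 10 hepatocyte markers. The part of hepatocyte RNA in the biliary values was not tested.

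Reprogrammed cells lay between the other DDC groups for most members. Of 35 genes, 25 were below DDC hepatocytes and above DDC biliary cells by the sign of the log2 difference, and 4 were above DDC hepatocytes and below DDC biliary cells. The 29 in between were 82.9% of the members, and 81.7% of all genes tested were in between. Both comparisons share the libraries of reprogrammed cells.

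Against DDC hepatocytes, 2 of 35 genes were called lower in reprogrammed cells, Ctsl and Lipa, and 0 higher, while 5.8% and 13.7% of all genes were. On the adjusted p alone 17 were lower and 1, Sgsh, was higher, against 20.7% and 26.9%. With libraries paired by number 23 were lower and 2 higher, Glb1 being added (26.4% and 30.6% of all genes). The median was -0.49 over the 35 genes and 0.06 over all genes. The direction depends on the scale here too, since the median gene was higher in reprogrammed cells by 0.71 as deposited. On scaled values 30 of 35 differences were negative, against 5 as deposited and 23 after quantile normalization. Relative to the median of all genes, the members' median was lower by 0.54 on scaled and 0.40 on deposited values, and higher by 0.08 after quantile normalization.

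Lipa was 119.7, 182 and 135 in reprogrammed cells, against 336, 305 and 318 in DDC hepatocytes (log2 difference -1.15 ± 0.18 (SE), adjusted p = 0.000207; -0.35 as deposited). Ctsl was 244, 609 and 367 in reprogrammed cells, against 644, 1042 and 958 in DDC hepatocytes (log2 difference -1.18 ± 0.31 (SE), adjusted p = 0.00676; -0.38 as deposited). As deposited neither was called (adjusted p = 0.046 for Lipa and 0.146 for Ctsl). On the scaled values neither overlapped, and in both groups library 1 was the lowest for Ctsl. Its call was lost without the first library of reprogrammed cells (log2 difference -0.87) and when only these groups were fitted (adjusted p = 0.0554). Without that library, or without the second DDC hepatocyte library, Ctsz and Hexa were called lower as well. Atp6v0d2 was called lower without the second reprogrammed library (-1.25) or the first hepatocyte library (-1.36).

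Lamp1 was 470.0, 553 and 479 in reprogrammed cells and 982, 808 and 825 in DDC hepatocytes (log2 difference -0.80 ± 0.13 (SE), adjusted p = 0.00027), and as deposited the difference was 0.0028. Ctsd was 369, 491 and 436 in reprogrammed cells and 613, 575 and 622 in DDC hepatocytes (log2 difference -0.49 ± 0.11 (SE), adjusted p = 0.00367), with the sign turned as deposited (0.31) and after quantile normalization (0.23). The 10 hepatocyte markers in reprogrammed cells had a median of 70.2% of their level in DDC hepatocytes in deposited TPM, and the 35 lysosomal genes one of 124%.

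Against DDC biliary cells, Lipa was the 1 gene called higher in reprogrammed cells and 0 were called lower, while 2.91% and 0.726% of all genes were. On the adjusted p alone 9 were higher and 0 lower, against 8.51% and 6.32%. With pairing, 14 were higher and 0 lower (15% and 9.97% of all genes), the added genes being Ctsb, Ctsl, Npc1, Lamp2 and Atp6v0d2. The median was 0.16 over the 35 genes and -0.05 over all genes. Lipa was 119.7, 182 and 135 in reprogrammed cells, against 76.1, 73.5 and 48.8 in DDC biliary cells, without overlap (log2 difference 1.13 ± 0.18 (SE), adjusted p = 0.00445). Its call was lost without the second reprogrammed library (0.96), without the third biliary library (0.93), as deposited (0.82), after quantile normalization (0.97) and with only these groups fitted (adjusted p = 0.0978). Lamp1, at 501 ± 45.4 in reprogrammed and 349.8 ± 37.4 in DDC biliary cells, passed the adjusted p alone (log2 difference 0.52 ± 0.13 (SE), adjusted p = 0.0193). With libraries paired by number, Atp6v0d2 was also called higher (log2 difference 1.02, adjusted p = 0.0108), so that 2 genes were called. Ctsl was called higher as well without the first reprogrammed library (1.27) or the second biliary library (1.21).

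Library 1 was the highest of its group in reprogrammed cells, biliary cells and hepatocytes alike for 11 of the 35 genes (31.4%), against 16% of all genes tested. These were Ctsa, Ctsb, Ctsz, Tpp1, Gaa, Hexa, Glb1, Sgsh, Ppt1, Mcoln1 and Atp6v1a. Library 2 was highest in all 3 groups for Atp6v0d2, Ctsl, Man2b1 and Npc1 (11.4%, against 12% of all genes), and library 3 for Tfeb (2.86%, against 4.88%). Reprogrammed cells had 59.0, 33.8 and 37.3 of Hexa, the other DDC groups 47.6, 26.2 and 25.7 (biliary) and 133, 47.4 and 62.3 (hepatocytes), with library 1 far above the others. For Atp6v0d2 library 1 was the lowest and library 2 the highest in each DDC group. The labels do not say whether a number marks an animal.

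Other genes of the pathway gave context for the members. As a background for the DDC counts below, 6.62% of all genes were called higher and 4.39% lower in hepatocytes, and 5.63% and 4.78% in biliary cells. Of 33 other lysosomal hydrolases, 1 was called higher and 1 lower in DDC than in untreated hepatocytes. Galns, a sulfatase of keratan sulfate, was 26.7 ± 6.37 in DDC and 9.60 ± 1.11 in untreated hepatocytes (log2 difference 1.36 ± 0.18 (SE), adjusted p = 0.000115). Hyal1, a hyaluronidase, was 21.1 ± 8.12 in DDC and 54.5 ± 8.93 in untreated hepatocytes (log2 difference -1.37 ± 0.23 (SE), adjusted p = 0.000804). In biliary cells limma called 0 of 33. On the adjusted p alone 3 were higher and 6 lower, against 13.3% and 12.9% of all genes. At an unadjusted p under 0.05, 4 were higher and 9 lower. The DDC response of Idua, an enzyme of glycosaminoglycan breakdown, was more positive in hepatocytes by 1.35 (adjusted p = 0.00284). Its log2 difference was 0.62 in hepatocytes and -0.73 in biliary cells.

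Of the 18 other lysosomal membrane proteins, 1 was called in each DDC comparison. Cd68, which macrophages hold in their lysosomes, was called higher in DDC hepatocytes (log2 difference 1.95 ± 0.47 (SE), adjusted p = 0.00793), where its values were 31.6, 5.71 and 6.47, against 2.20, 1.70 and 2.30 in untreated hepatocytes. The first DDC library was the highest. Laptm4b was called lower in DDC biliary cells, at 37.6 ± 5.41, against 81.9 ± 11.6 in untreated biliary cells (log2 difference -1.10). Of 14 other V-ATPase subunits tested, limma called 0 with DDC in either cell type, so that Atp6v0d2 was the 1 subunit called among all 19 tested. On the adjusted p alone 5 of the 14 were higher and 1 lower in DDC hepatocytes, against 14.8% and 12.9% of all genes. In DDC biliary cells 1 was higher and 0 lower, against 13.3% and 12.9%. At an unadjusted p under 0.05, without a share of all genes, 7 were higher and 2 lower in DDC hepatocytes. In DDC biliary cells 1 was higher and 1 lower at that cut.

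Of 18 factors and regulators of the TFEB family, Rragd alone was called higher with DDC, in both cell types. Its product is a GTPase that carries the kinase mTORC1 to the lysosome. It was 49.8, 9.05 and 7.96 in DDC hepatocytes, against 0.272, 0.181 and 0.117 in untreated hepatocytes (log2 difference 3.80 ± 0.48 (SE), adjusted p = 9.14e-05). The first DDC library was far above the other two, and the response was larger in hepatocytes (difference 2.22, adjusted p = 0.0484). In biliary cells it was 70.4, 75.1 and 73.7 with DDC and 19.8, 25.7 and 26.2 without (log2 difference 1.58 ± 0.48 (SE), adjusted p = 0.0276). Of 21 autophagy and CLEAR network genes, Gpnmb, a glycoprotein of lysosome-rich cells, was called higher in both, at 14.3, 3.27 and 3.16 in DDC and 0.0293, 0.0550 and 0.0777 in untreated hepatocytes (log2 difference 2.62 ± 0.45 (SE), adjusted p = 0.00101). In biliary cells Gpnmb was 3.78, 3.08 and 7.39 with DDC and 0.108, 0.0460 and 0.177 without (log2 difference 2.30 ± 0.45 (SE), adjusted p = 0.00259). Gabarapl1, another gene of this list, was called lower in biliary cells, at 128 ± 24.7 with DDC and 260 ± 14.8 without. The median log2 difference of the 21 genes was -0.04 in hepatocytes and -0.0066 in biliary cells.

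Of 13 tested genes for enzyme sorting and cystatin inhibitors, Cstb was called higher with DDC in both cell types. It codes for cystatin B, which inhibits cysteine cathepsins such as the products of Ctsb, Ctsh and Ctsl. It was 1174, 540.5 and 857 in DDC hepatocytes, against 118, 125 and 142 in untreated hepatocytes (log2 difference 2.66 ± 0.21 (SE), adjusted p = 1.96e-06). In biliary cells it was 485, 465 and 451 with DDC and 150.2, 157 and 173 without (log2 difference 1.54 ± 0.21 (SE), adjusted p = 0.000183). The groups did not overlap in either cell type, and the response was larger in hepatocytes (difference 1.12, adjusted p = 0.0261). Igf2r, the receptor that sorts hydrolases to lysosomes by their mannose phosphate tag, was called higher in DDC biliary cells (log2 difference 1.01 ± 0.17 (SE), adjusted p = 0.000855) and reached 0.89 in hepatocytes.

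Between cell types, 4 of the 33 other hydrolases were called higher and 7 lower in untreated biliary cells on the scaled values, against 21.6% and 15.6% of all genes. Acp5, the tartrate-resistant acid phosphatase, was 38.3 ± 11.5 in biliary cells, against 205 ± 20.3 in hepatocytes (log2 difference -2.42), and was lower in reprogrammed cells than in DDC hepatocytes (-1.18) and higher than in DDC biliary cells (1.12). Of 14 other V-ATPase subunits tested, 1 was called higher and 1 lower in untreated biliary cells, against the same shares of all genes. Their differences were positive for 1 and negative for 13. Atp6v0a1, the 1 called lower, was 17.5 ± 1.98 in biliary cells, against 39.9 ± 0.384 in hepatocytes. Atp6v0e2, the 1 called higher, was 39.5 ± 3.48 in untreated biliary cells, against 0.299 ± 0.148 in untreated hepatocytes (log2 difference 4.97 ± 0.27 (SE), adjusted p = 6.93e-09). In reprogrammed cells Atp6v0e2 was 14.9 ± 6.35, against 1.29 ± 0.649 in DDC hepatocytes (log2 difference 2.76 ± 0.27 (SE), adjusted p = 3.97e-06). There 1 of the 14 was called higher and 0 lower, against 13.7% and 5.8% of all genes. Of these 14 differences 2 were positive and 12 negative. Both of these differences of Atp6v0e2 were larger than that of the median gene as deposited, which was 1.11 for untreated cells and 0.71 for reprogrammed cells and DDC hepatocytes.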

How the data were processed

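Total RNA of sorted mouse liver cells, extracted with an RNeasy micro kit, was sequenced in 15 libraries. The authors deposited gene TPM, made with Salmon on build mm10 per the submitters' processing notes. No Salmon version is given in the sources used here. Libraries were grouped by title. TPM keeps no read totals, so depth and counting error are unknown, and precision was judged from 3 libraries per group.

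Genes of at least 1 TPM in at least 3 libraries were tested, 13905 of 24493. The scale factor of a library was its median ratio to the geometric mean over 12427 genes above 0 in every library. log2(scaled TPM + 1) was tested by limma 3.58.1 (R 4.3.3), with the 5 groups in 1 fit and a trend, and p-values were adjusted by Benjamini-Hochberg over all genes tested. The tests were checked on simulated data. The genes and lists were chosen with earlier results of these data known. Values in every library were given for called genes, at most 8 per comparison by size, and for Tfeb, Lamp1, Ctsd and Atp6v0d2. Of other lists at most 3 called genes each were named per comparison. Values of Asah1, which ranked below the first 8, of Ctsl with DDC, of Ctss in hepatocytes and of Hexa in all DDC libraries were added after they were seen. So were values by library for Cd68, Rragd, Gpnmb and Cstb, and the ranges of Lyz2. Gene positions were from GENCODE M21 (GRCm38) and promoters from RefSeq (GRCm38.p6). Plots used matplotlib 3.10.9 (Python 3.11.15).

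Libraries were checked for pairing by number through the correlation of their deviations from group means. For equal numbers the correlation was 0.136 to 0.449 for reprogrammed cells with DDC hepatocytes, 0.208 to 0.456 for reprogrammed cells with DDC biliary cells, and 0.151 to 0.237 for untreated biliary cells with hepatocytes. All were above 0.1, so these were taken as paired by the data, which the labels do not state. DDC hepatocytes and DDC biliary cells (0.043 to 0.319), and DDC and untreated libraries, were not taken as paired by this cut. The block within treatment nevertheless gave equal numbers a shared term in all DDC groups, DDC hepatocytes and DDC biliary cells included. For DDC against untreated cells, and for the difference of the DDC responses, a block over all libraries was run as an alternative. The cut was not met for DDC with untreated libraries. Correlations between unequal numbers were not set beside the cut.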

Additional observations from a re-analysis of the deposited data

Results flagged for a closer look

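For 5 lysosomal genes the DDC response of hepatocytes differed from that of biliary cells, by limma's test of the difference itself and an adjusted p under 0.05 over all genes tested. The differences are hepatocyte response minus biliary response on the log2 scale. The fit held no replicate block, and the block within treatment was not run for these differences. For Ctsc the difference was -1.20 ± 0.26 (SE, adjusted p = 0.00921), with responses of -1.67 in hepatocytes and -0.47 in biliary cells. For Ctsh it was -0.71 ± 0.16 (adjusted p = 0.0119), with 0.06 and 0.78. For Asah1 it was 0.82 ± 0.15 (adjusted p = 0.00346), with 0.90 and 0.08. For Grn it was 0.60 ± 0.13 (adjusted p = 0.00703), with 0.63 and 0.04. For Npc2 it was 0.45 ± 0.11 (adjusted p = 0.0209), with 0.64 and 0.19.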

How the results depend on the processing

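Depth limits no value that can be named, since TPM keeps no read totals. Atp6v0d2 and Ctss lay near the pseudocount in untreated cells. The calls of Atp6v0d2, Lgmn and Ctsc in hepatocytes with DDC, and of Atp6v0d2 in biliary cells with DDC, held under every alternative run. With TPM as deposited, 3 genes were called higher and 0 lower in reprogrammed cells than in DDC hepatocytes, and 0 higher than in DDC biliary cells. Of all genes 30.5%, 0.0647% and 0.863% were called in the same order. In untreated biliary cells 12 were called higher and 0 lower than in hepatocytes, against 52.9% and 3.38% of all genes. With DDC 4 were called higher in hepatocytes and 4 in biliary cells, and 0 had a lower response in hepatocytes. The shares of all genes were 7.45%, 7.41% and 3.26% in the same order. Quantile normalization called 0 lower in reprogrammed cells than in DDC hepatocytes, 0 higher than in DDC biliary cells, 2 higher and 5 lower in untreated biliary cells, 6 higher in biliary cells with DDC, and 0 with a lower response in hepatocytes. Of all genes it called 5.36%, 2.81%, 14.1%, 16.7%, 6.05% and 3.46% in the same order. A pseudocount of 0.1 called 2 higher and 12 lower in untreated biliary cells, adding Ctss as higher and Atp6v0d2 (-2.11) as lower. It also added Ctss (1.21) as higher in DDC hepatocytes and Lgmn (1.02) as higher in DDC biliary cells. With only the groups compared, 1 was lower in reprogrammed cells than in DDC hepatocytes, 0 higher than in DDC biliary cells, and 1 higher in biliary cells with DDC. By the adjusted p alone, reprogrammed cells had 1 gene higher and 17 lower than DDC hepatocytes, and 9 higher than DDC biliary cells. Untreated biliary cells had 3 higher and 20 lower, DDC hepatocytes 11 higher and 3 lower, and DDC biliary cells 8 higher and 3 lower, and 3 responses were larger and 2 lower in hepatocytes. With the replicate number as a block within treatment, 2 were called higher in reprogrammed than in DDC biliary cells. On the adjusted p alone the counts moved to 14 higher there, and to 2 higher and 23 lower against DDC hepatocytes. They moved to 5 higher and 23 lower in untreated biliary cells. A block over all libraries added Ctss as higher in DDC than in untreated hepatocytes (adjusted p = 0.0388). Neither block changed any other call with the fold. Leaving out 1 library at a time gave 2 to 4 lower in reprogrammed cells than in DDC hepatocytes, 0 to 2 higher than in DDC biliary cells, 0 to 2 higher and 10 to 11 lower in untreated biliary cells, 2 to 4 higher in DDC hepatocytes and 1 to 4 higher in DDC biliary cells. Shares of all genes were not computed for the pseudocount of 0.1, for only the groups compared or with 1 library left out. Nor were they computed for the blocks with the fold, so these counts have no background.

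Signs turned for differences between cell types. As deposited, reprogrammed cells against DDC hepatocytes gave 0.64 for Tfeb, 0.0028 for Lamp1 and 0.31 for Ctsd (0.23 by quantiles). Against DDC biliary cells Ctsd gave -0.23 as deposited, -0.35 by quantiles and Tfeb 0.17 by quantiles. Untreated biliary cells against hepatocytes gave 0.047 for Hexa and 0.45 for Ctsd as deposited, and 0.38 for Ctsd and -0.68 for Tfeb by quantiles. With 1 library left out, Tfeb ran from -0.13 to 0.065 in reprogrammed cells against DDC hepatocytes, from -0.13 to 0.11 against DDC biliary cells, from -0.060 to 0.11 in untreated biliary cells against hepatocytes, and from -0.091 to 0.13 for the difference of the DDC responses. Ctsd in reprogrammed against DDC biliary cells ran from -0.0052 to 0.20. The cause of these changes was not tested beyond the scaling itself.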
